A study of Mus musculus with 8 samples.

Results

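RNA sequencing of regulatory T (Treg) cells was used here to ask how far resting Treg cells that lack Foxp1 resemble activated Treg cells of wild-type (WT) mice, and which parts of the activated state they reach, exceed or lack. The comparison rests on 4 of the 8 libraries of the series: 2 replicates of Foxp1-deficient rTreg cells (the Foxp1 cKO group) and 2 replicates of WT aTreg cells, chosen by their labels. The 2 WT rTreg libraries served as the resting reference, and the 2 Foxp1-deficient aTreg libraries are given beside them where they add a value. All mice were C57BL/6, 6 to 8 weeks old, and cells came from spleen and peripheral lymph nodes. Every mouse carried Foxp3-YFP-Cre, in which Cre recombinase and a yellow fluorescent protein are made under control of the Foxp3 locus. The Foxp1-deficient mice were in addition Foxp1fl/fl, so Foxp1 was to be deleted in any cell that had switched on Foxp3, and the controls carried the Cre without the floxed allele. Cells were sorted as CD4+YFP+, with resting cells CD44low and activated cells CD44high, each gated on a further surface marker as well. The labels do not say whether a replicate was 1 mouse or a pool, so p-values measure only the spread between these libraries, which may be partly technical.

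Treg cells restrain immune responses and depend on the transcription factor Foxp3. Resting Treg cells recirculate through lymphoid organs with the help of homing receptors and the egress receptor S1pr1, whereas activated Treg cells divide more, carry receptors for entry into tissues and make suppressive molecules such as IL-10. Foxp1 is a forkhead transcription factor best known in T cells for keeping naive cells quiescent.

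The 4 libraries held 6373170 and 14384754 counts (Foxp1-deficient rTreg replicates 1 and 2) and 8863453 and 15268623 counts (WT aTreg). Foxp1 itself, on chromosome 6 (GRCm38, bases 98925338 to 99522721), stood at 342 and 338 CPM (counts scaled to a common library size) in Foxp1-deficient rTreg cells, at 353 and 384 CPM in WT rTreg cells, at 234 and 230.3 CPM in WT aTreg cells, and at 126 and 102 CPM in Foxp1-deficient aTreg cells. Against WT rTreg cells the log2 difference was -0.12 ± 0.09 (adjusted p = 0.46). The count covers the whole gene and does not separate the floxed part, so it does not check the label of the Foxp1-deficient rTreg libraries. By the same count, Foxp1-deficient aTreg cells lay below WT aTreg cells. Why the subsets differed in this was not tested. Replicate number went with sex, since Xist had 0 to 3 counts in every replicate 1 library and 15098 to 21822 counts in every replicate 2 library, and the fit carried replicate number as a block. Y-linked genes had 2303 to 4575 counts in the replicate 1 libraries. In replicate 2 they had 279 in WT aTreg and 430 in WT rTreg cells, against 42 in Foxp1-deficient rTreg and 38 in Foxp1-deficient aTreg cells. The source of these replicate 2 counts was not tested. The 6 general T cell markers summed to 3098 and 3428 CPM in Foxp1-deficient rTreg cells and to 2934 and 2787 CPM in WT aTreg cells, and none of them was called different. One oddity concerned both resting replicate 1 libraries: 18 genes had at least 10 counts in each of these and at most 3 counts in all of the other 6 libraries, and 13 of the 18 belong to 34 photoreceptor, retinal pigment and lens genes (a list chosen after the values were seen). Rbp3, a retinoid-binding protein of the retina, had 70 counts in Foxp1-deficient rTreg replicate 1 and 53 counts in WT rTreg replicate 1, against 0 counts elsewhere.

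At 2-fold, more genes were lower than higher in Foxp1-deficient rTreg cells, with WT aTreg cells as the reference. Of 14540 genes tested, 1545 were lower (10.6%) and 511 were higher (3.51%) in Foxp1-deficient rTreg cells by at least 2-fold, at an adjusted p under 0.05 (edgeR quasi-likelihood test, Benjamini-Hochberg). These shares of all genes tested are the reference for the list shares below. The lower genes had a median log2 difference of -2.31 and the higher genes one of 1.73, with a median of 0.02 over all genes tested. At an adjusted p under 0.05 whatever the fold, the numbers were closer, at 2884 lower and 2453 higher. For 8930 genes (61.4%), the 95% interval of the log2 difference lay wholly between -1 and 1, which is called within 2-fold below. In bulk libraries, fewer cells that express a gene and less RNA per cell cannot be told apart.

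**Figure D1:**
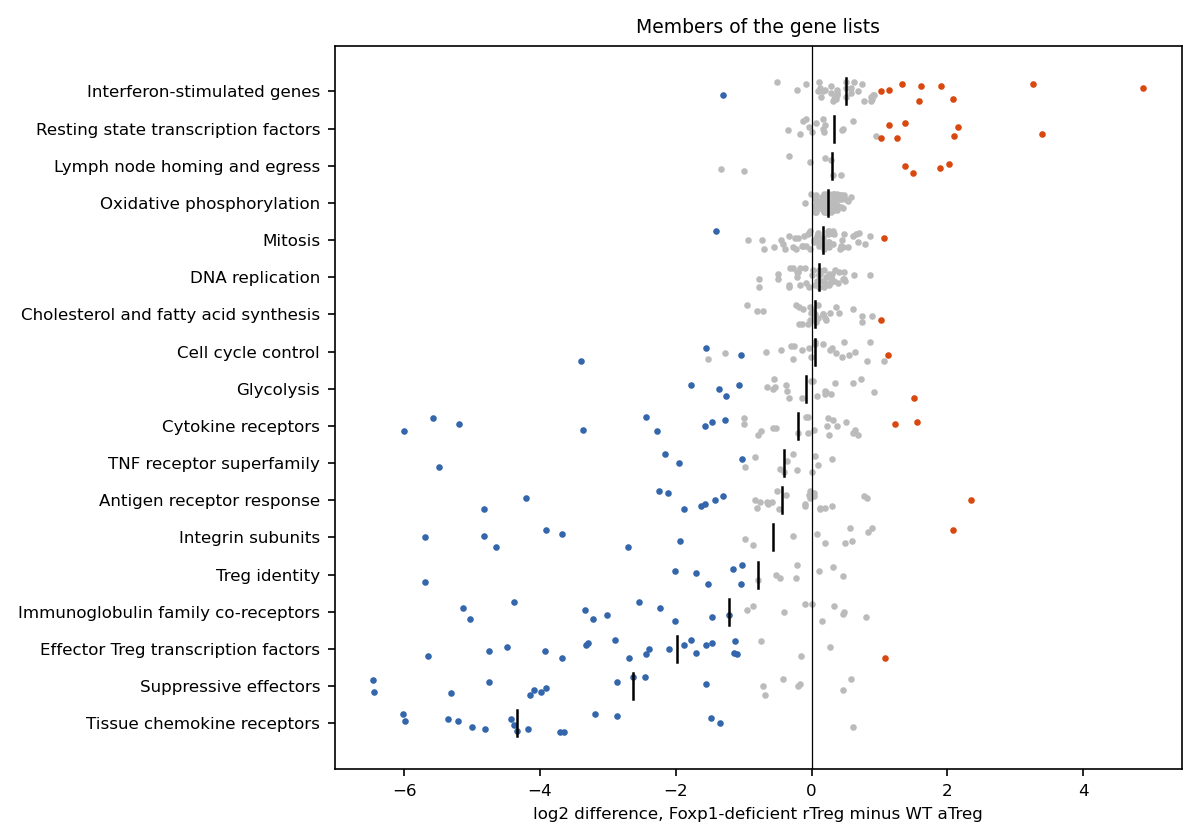
Log2 difference between Foxp1-deficient rTreg and WT aTreg cells for each tested member of 18 gene lists. Each point is 1 gene (orange, called higher; blue, called lower; grey, not called), and each black bar is the median of a list. Tissue chemokine receptors (median -4.34) and suppressive effectors (median -2.63) sat furthest to the left, and mitosis genes (median 0.16) lay around 0.

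To say which parts of the activated state were meant, activation genes were taken from WT aTreg against WT rTreg cells, where 1382 genes were higher (9.5%) and 411 were lower (2.83%) in WT aTreg cells. An activation gene was counted as lacked when Foxp1-deficient rTreg cells were called different from WT aTreg cells on the resting side, as exceeded when they were called different on the far side, as reached when the interval lay within 2-fold, and otherwise as undecided. This definition shares the WT aTreg libraries with the comparison itself, and the comparison with WT rTreg cells shares the Foxp1-deficient rTreg libraries, so the class sizes and the distances below are a description. Of the 1382 genes higher in WT aTreg cells, 1099 (79.5%) were lacked, 82 (5.93%) were reached, 9 were exceeded and 192 were undecided. Of the 411 genes lower in WT aTreg cells, 241 (58.6%) were lacked, 12 of them from the eye list (Rbp3, Grk1 and Ttr among them), while 29 (7.06%) were reached, 1 was exceeded and 140 were undecided. Against WT rTreg cells, Foxp1-deficient rTreg cells were higher in 274 genes (1.88%) and lower in 209 (1.44%). These counts fell to 158 and 112 without Foxp1-deficient rTreg replicate 1, to 95 and 43 without its replicate 2, to 185 and 122 without WT rTreg replicate 1 and to 91 and 76 without WT rTreg replicate 2, and were 109 and 69 without the block. Among the 1099 lacked genes, 1030 were not called against WT rTreg cells, 18 had moved part of the way, and 51 had moved in the opposite direction, by the same calls. Of the 82 reached genes of the higher side, 62 were also called against WT rTreg cells and 20 were not. Of the 29 of the lower side, 7 were called and 22 were not, so most of these were within 2-fold of WT aTreg cells without a call away from the resting level. Without Foxp1-deficient rTreg replicate 2 the reached genes on the higher side fell to 34, and without WT aTreg replicate 2 to 50.

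**Figure D2:**
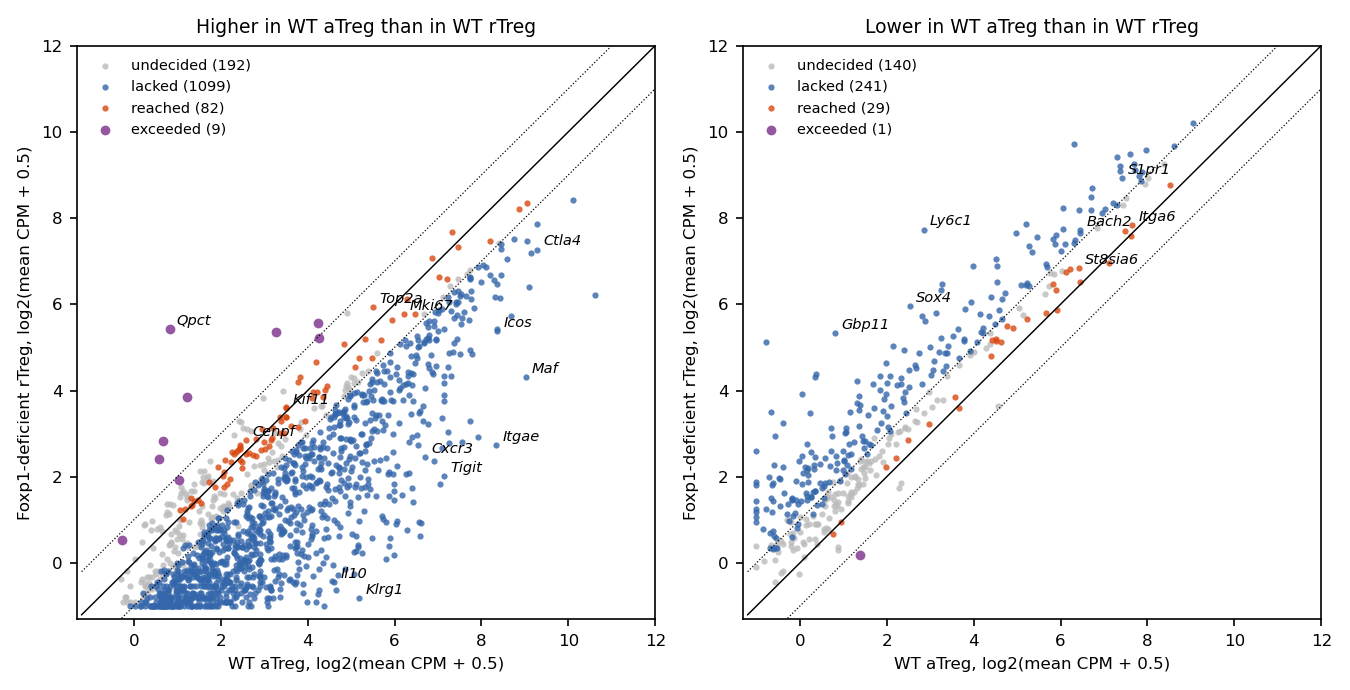
Mean level in Foxp1-deficient rTreg cells (vertical axis) against mean level in WT aTreg cells (horizontal axis), both as log2(CPM + 0.5), for the 1382 activation genes that were higher (left) and the 411 that were lower (right) in WT aTreg cells. Each point is 1 gene coloured by class, the solid line marks equal levels and the dotted lines mark a 2-fold difference. On the left, most of the 1099 lacked genes lay below the lower dotted line, whereas the 82 reached genes lay near the solid line.

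On the higher side, the reached genes that were on a list were mostly those of cell division, although most of the 82 were on no cell cycle list. The 3 cell cycle lists supplied 30 of the 82 reached genes on the higher side, but only 3 of the 1099 lacked genes. Of the 30, 23 came from the mitosis list and 7 from the DNA replication list. Of the 14540 genes tested, 56 were on the mitosis list, 47 on the DNA replication list and 27 on the cell cycle control list. In the mitosis list, 37 of 56 genes tested were higher in WT aTreg than in WT rTreg cells. Of these 37, 23 were reached, 12 were undecided, 1 was exceeded and 1 was lacked. Across the 37, Foxp1-deficient rTreg cells had covered a median of 106% of the log2 distance from WT rTreg to WT aTreg cells, against a median of 3.78% over all activation genes.

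Mki67, which encodes the Ki-67 protein of dividing cells, stood at 43.4 and 65.4 CPM in Foxp1-deficient rTreg cells, against 6.72 and 9.43 CPM in their WT resting counterparts and 52.4 and 94.8 CPM in WT aTreg cells. The Foxp1-deficient resting cells overlapped the WT activated cells and lay far above the WT resting cells, at a log2 difference of -0.42 ± 0.09 (SE, n = 2 libraries a group, adjusted p = 0.0103) from WT aTreg cells and 2.75 ± 0.12 (adjusted p = 3.44e-05) from WT rTreg cells. Top2a, the topoisomerase that untangles chromosomes, stood at 53.2 and 68.5 CPM in Foxp1-deficient rTreg cells against 31.3 and 58.1 CPM in WT aTreg cells, and was 0.46 ± 0.12 higher on the log2 scale (adjusted p = 0.018), which is under 2-fold. The mitotic kinesin gene Kif11 stood at 7.49 and 15.7 CPM against 6.58 and 15.1 CPM, with a 95% interval of the log2 difference from -0.34 to 0.57. Cenpf, a kinetochore gene, stood at 5.58 and 7.87 CPM against 3.51 and 7.44 CPM (interval -0.18 to 0.77). All of these ranges overlapped between the 2 groups, and none overlapped those of WT rTreg cells, in which Kif11 was at 0.553 and 1.73 CPM and Cenpf at 0.368 and 0.471 CPM.

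The mitotic kinase Cdk1 (3.67 and 4.62 CPM against 2.63 and 3.97 CPM in WT aTreg cells), its partner cyclin Ccnb2 (7.17 and 5.85 CPM against 5.27 and 9.81 CPM) and the chromosomal kinase Aurkb (4.14 and 5.34 CPM against 2.08 and 5.51 CPM) were likewise within 2-fold. The DNA glycosylase Neil3 went from 0 and 0.0786 CPM in WT rTreg cells to 1.28 and 3.18 CPM in Foxp1-deficient rTreg cells, beside 0.987 and 3.27 CPM in WT aTreg cells, and the helicase Pif1 from 0 and 0.157 CPM to 1.75 and 2.02 CPM, beside 0.987 and 2.56 CPM. Foxp1-deficient aTreg cells were higher than either, at 173 and 244 CPM for Mki67 and 92.1 and 128 CPM for Top2a.

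The 2 mitosis genes called different from WT aTreg cells were Bub1 and Racgap1 (1.79% higher and 1.79% lower), and 39 of the 56 were within 2-fold. Bub1, a spindle checkpoint kinase, stood at 2.07 and 4.55 CPM in Foxp1-deficient rTreg cells against 0.768 and 2.37 CPM in WT aTreg cells. It was higher by a log2 difference of 1.06 ± 0.29 (adjusted p = 0.0222), but the groups overlapped and the call was lost when any 1 of the 4 libraries was left out (log2 differences of 0.90 to 1.51). Racgap1, which acts in cytokinesis, stood at 13.7 and 15.0 CPM against 32.9 and 42.2 CPM and was lower by -1.40 ± 0.11 (adjusted p = 7.88e-05), with no overlap.

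The promoters of 4 of the reached mitosis genes (RefSeq, GRCm38.p6, from 250 bases before to 50 bases after the start) are shown for a sequence element known from mitotic genes. Capitals mark TTTGAA, the core of the CHR element of mitotic genes, and TTTNGCGC, an E2F motif, on either strand. The windows are chr7:135716330-135716629 for Mki67, chr11:99024140-99024439 for Top2a, chr10:69352863-69353162 for Cdk1 and chr9:70421505-70421804 for Ccnb2, all on the minus strand.
Mki67: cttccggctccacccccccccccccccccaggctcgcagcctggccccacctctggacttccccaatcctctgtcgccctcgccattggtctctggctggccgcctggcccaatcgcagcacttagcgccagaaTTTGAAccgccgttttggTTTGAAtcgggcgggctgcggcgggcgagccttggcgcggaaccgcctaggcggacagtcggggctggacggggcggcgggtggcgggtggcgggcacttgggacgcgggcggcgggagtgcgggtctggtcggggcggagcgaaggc
Top2a: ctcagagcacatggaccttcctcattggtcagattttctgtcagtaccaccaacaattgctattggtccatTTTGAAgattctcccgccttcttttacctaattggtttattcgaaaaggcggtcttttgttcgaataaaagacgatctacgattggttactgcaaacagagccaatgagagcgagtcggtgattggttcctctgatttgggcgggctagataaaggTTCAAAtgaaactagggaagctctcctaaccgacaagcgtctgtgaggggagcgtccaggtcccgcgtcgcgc
Cdk1: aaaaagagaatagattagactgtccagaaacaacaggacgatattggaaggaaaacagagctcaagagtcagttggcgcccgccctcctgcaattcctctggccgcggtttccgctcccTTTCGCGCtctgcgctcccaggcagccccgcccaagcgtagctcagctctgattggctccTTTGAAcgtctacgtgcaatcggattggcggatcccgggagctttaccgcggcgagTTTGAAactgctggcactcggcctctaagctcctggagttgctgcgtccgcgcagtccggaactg
Ccnb2: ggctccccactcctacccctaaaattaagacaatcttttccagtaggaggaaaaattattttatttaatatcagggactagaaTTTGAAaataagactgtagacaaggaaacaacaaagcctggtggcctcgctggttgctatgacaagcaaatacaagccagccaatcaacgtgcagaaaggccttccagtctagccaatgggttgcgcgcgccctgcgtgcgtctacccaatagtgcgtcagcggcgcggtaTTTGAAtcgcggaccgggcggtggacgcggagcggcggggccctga
Each of the 4 held TTTGAA at 2 places, whereas the promoters of Kif11 and Cenpf, not shown, held it at 1 place and that of Neil3 at none. Cdk1 also held the E2F motif, which overlapped neither TTTGAA. RefSeq promoters were found for 9705 of the 14540 genes tested, and TTTGAA was in 14.6% of them. It was in 34 of the 46 mitosis genes with a promoter (73.9%), in 25 of the 62 reached genes of the higher side (40.3%), and in 127 of 798 lacked genes of the higher side (15.9%). TTTNGCGC was in 2.81% of all promoters and in 13 of 38 promoters of the DNA replication list (34.2%). It was in 9 of the 62 reached genes (14.5%) and in 1.38% of the lacked genes. The reached genes include members of the mitosis and DNA replication lists. Shares without these members were not counted, so a difference between reached and lacked genes cannot be separated from list membership. The forkhead motif TGTTTAC was in 3.10% of all promoters and in 2 of the 62 reached genes (3.23%), 30 of the 798 lacked genes (3.76%), 1 of 52 genes above both WT states (1.92%) and 5 of 106 genes below both WT states (4.72%). The share was higher in smaller sets: 2 of 20 reached genes of the lower side (10%), 3 of 46 mitosis genes (6.52%), 2 of 38 DNA replication genes (5.26%) and 2 of 19 effector transcription factor genes (10.5%). A match describes the letters of the window and is not a binding site.

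**Figure D3:**
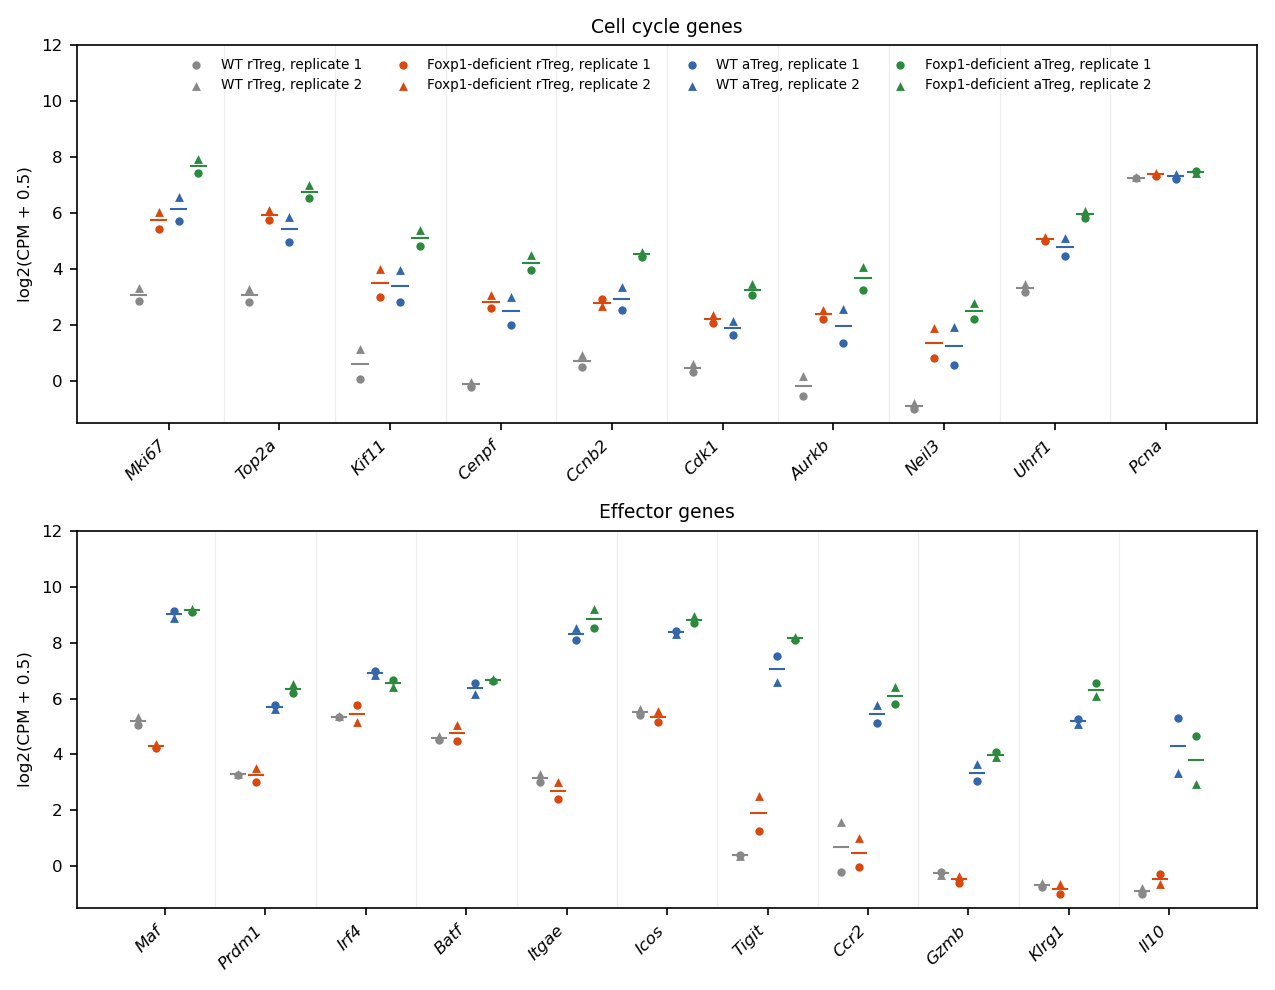
Level in each library, as log2(CPM + 0.5), for 10 cell cycle genes (top) and 11 effector genes (bottom). Circles are replicate 1, triangles are replicate 2, and short bars are the mean of the 2 in WT rTreg (grey), Foxp1-deficient rTreg (orange), WT aTreg (blue) and Foxp1-deficient aTreg cells (green). Orange lay beside blue for genes such as Mki67 and Kif11 and beside grey for Maf, Icos and Prdm1.

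DNA replication genes gave no call in either direction among 47 tested, by edgeR, limma-voom or DESeq2 (10 higher and 6 lower at an unadjusted p under 0.05, which is 21.3% and 12.8%, against 22.3% and 23.8% of all genes tested), with a median log2 difference of 0.12 and 41 genes within 2-fold of WT aTreg cells. Most did not separate WT aTreg from WT rTreg cells in the first place: 10 were higher in WT aTreg cells, of which 7 were reached. Uhrf1, which copies DNA methylation marks, stood at 31.7 and 34.9 CPM in Foxp1-deficient rTreg cells, 21.5 and 34.2 CPM in WT aTreg cells and 8.66 and 10.7 CPM in WT rTreg cells. The sliding clamp Pcna was at 162 and 173 CPM against 151 and 168 CPM in WT aTreg cells. The helicase subunit Mcm2 was at 130.4 and 118 CPM against 92.2 and 97.3 CPM, a log2 difference of 0.38 ± 0.08 (adjusted p = 0.00629) that stayed under 2-fold without overlap.

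Among 27 tested cell cycle control genes, 3 were lower (11.1%) and 1 was higher (3.70%) than in WT aTreg cells, near the 10.6% and 3.51% of all genes. Rbl2, a retinoblastoma family repressor, stood at 95.6 and 113 CPM against 212 and 218 CPM (log2 difference -1.04 ± 0.08, adjusted p = 6.99e-05), and fell short of 2-fold without replicate 1 of either group. The kinase inhibitor Cdkn2c had moved part of the way, from 1.57 and 3.22 CPM in WT rTreg cells to 3.03 and 7.22 CPM, beside 14.2 and 16.9 CPM in WT aTreg cells. Cdkn2a had 0 and 1 counts against 6 and 9, and its call was lost when any 1 of the 4 libraries was left out. The inhibitor Cdkn2d was the higher one, at 91.0 and 78.6 CPM against 32.5 and 44.1 CPM (1.13 ± 0.13, adjusted p = 0.000543), beside 83.9 and 85.6 CPM in WT rTreg cells, and fell short of 2-fold without replicate 1 of either group. E2f1, a driver of S phase entry, stood at 13.7 and 13.6 CPM against 6.80 and 8.01 CPM in WT aTreg cells and 2.76 and 2.91 CPM in WT rTreg cells, a log2 difference of 0.87 ± 0.15 from WT aTreg cells (adjusted p = 0.0032).

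The transcription factors of effector Treg cells were lacked. Of 24 tested, 20 were lower than in WT aTreg cells (83.3%) and 1, Myb, was higher (4.17%), with a median log2 difference of -1.99. All 19 that were activation genes were lacked, and none of the 24 was called against WT rTreg cells. Maf, which supports IL-10 production, stood at 18.3 and 20.2 CPM in Foxp1-deficient rTreg cells and at 564 and 473 CPM in WT aTreg cells, 26.8-fold apart (log2 difference -4.74 ± 0.13, adjusted p = 1.41e-06). It was also under both WT rTreg libraries, at 32.5 and 39.8 CPM. Prdm1, which encodes Blimp-1, stood at 7.65 and 10.8 CPM against 54.5 and 48.7 CPM (-2.44 ± 0.16), and WT rTreg cells were at 9.21 and 9.35 CPM.

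Irf4 and Batf, which cooperate in effector Treg differentiation, were lower by less: Irf4 stood at 53.9 and 35.2 CPM against 127 and 113 CPM (-1.47 ± 0.13), and Batf at 21.8 and 32.7 CPM against 93.3 and 71.6 CPM (-1.55 ± 0.18). Pparg, known from adipose tissue Treg cells, was at 1.55 CPM on average in WT aTreg cells and at 0.0361 CPM in Foxp1-deficient rTreg cells, and its call was lost without Foxp1-deficient rTreg replicate 1. None of these groups overlapped. Myb, itself linked to effector Treg differentiation, stood at 61.0 and 49.3 CPM against 27.1 and 24.7 CPM (1.08 ± 0.11, adjusted p = 0.00021), beside 39.6 and 27.1 CPM in WT rTreg cells, and the call against WT aTreg cells was lost without WT aTreg replicate 1.

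**Figure D4:**
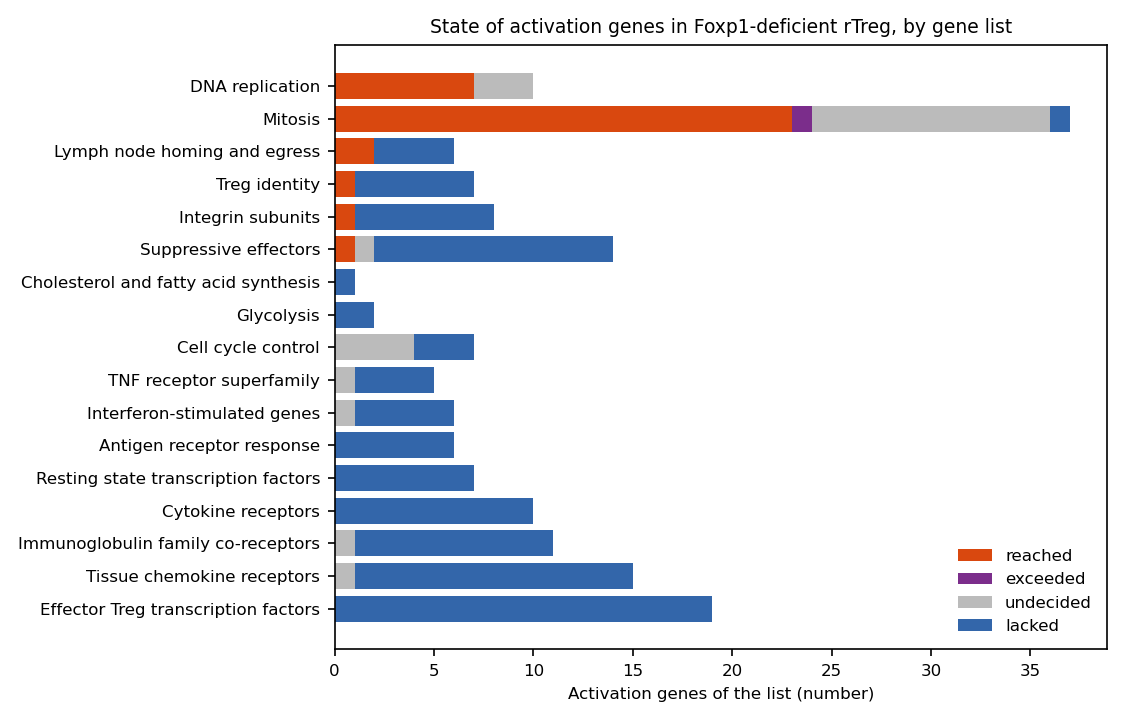
Number of activation genes of each gene list (horizontal axis) that Foxp1-deficient rTreg cells reached (orange), exceeded (purple) or lacked (blue), or that were undecided (grey). Only the mitosis list (23 of 37) and the DNA replication list (7 of 10) were mostly reached, and all 19 activation genes of the effector transcription factor list were lacked.

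Receptors for entry into tissues were the most reduced list. Of 17 tissue chemokine and chemoattractant receptors tested, 16 were lower than in WT aTreg cells (94.1%), with a median log2 difference of -4.34, and the other one was Cysltr2. Ccr2 stood at 0.478 and 1.52 CPM against 34.5 and 53.7 CPM (-5.35 ± 0.43, adjusted p = 2.02e-05), Ccr6 at 2.87 and 1.66 CPM against 75.9 and 49.4 CPM (-4.81 ± 0.24), and the gut homing receptor Gpr15 at 0.319 and 0.506 CPM against 25.5 and 32.0 CPM (-6.02 ± 0.54). Cxcr3, a receptor of type 1 inflammation, had moved part of the way: from 0.829 and 1.18 CPM in WT rTreg cells to 4.14 and 5.85 CPM in Foxp1-deficient rTreg cells (2.33 ± 0.39, adjusted p = 0.00696), still 20.2-fold below WT aTreg cells at 108 and 98.5 CPM. Ccr8, which marks Treg cells in tissues, was at 10.7 and 4.33 CPM against 101 and 22.9 CPM, and the pairs moved alike although replicate 1 was the higher one in both groups. Cysltr2, a leukotriene receptor, was the exception of the list, 12.1-fold above WT rTreg cells (adjusted p = 0.00133) and not called against WT aTreg cells (0.61 ± 0.26, adjusted p = 0.104).

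Of 18 integrin subunits tested, 7 were lower (38.9%) and 1 was higher (5.56%). Itgae, the CD103 chain that binds E-cadherin, stood at 4.78 and 7.58 CPM against 275 and 369.7 CPM, 51.9-fold apart (-5.70 ± 0.12, adjusted p = 3.31e-07), with WT rTreg cells at 7.55 and 9.27 CPM. Itgb1 stood at 75.9 and 92.9 CPM against 589 and 502 CPM (-2.70 ± 0.14). Itga4, the chain that pairs with Itgb1 in VLA-4, went the other way: it was at 1356 and 1469.8 CPM in Foxp1-deficient rTreg cells, 706 and 820.3 CPM in WT aTreg cells and 565 and 671 CPM in WT rTreg cells. It lay above every WT library, at 0.89 ± 0.06 from WT aTreg cells (adjusted p = 2.75e-05, under 2-fold) and 2.29-fold above WT rTreg cells (adjusted p = 5.78e-05). Itga9, the higher one, was at 17.2 and 7.80 CPM against 2.96 and 2.44 CPM (2.08 ± 0.34).

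Suppressive effectors were mostly lacked too. Of 19 tested, 12 were lower (63.2%) and none was higher, with a median log2 difference of -2.63. Il10 had 2 counts in each Foxp1-deficient rTreg library against 352 and 148 in WT aTreg cells, a ratio of 102 with a 95% counting interval of 39.5 to 375 in favour of WT aTreg cells. Ebi3, a chain of IL-35, stood at 0.797 and 0.939 CPM against 16.8 and 14.4 CPM (-4.08 ± 0.42), and granzyme B (Gzmb) at 0.159 and 0.289 CPM against 7.79 and 12.1 CPM (-5.31 ± 0.62). Fgl2, a secreted suppressive factor, was 87.3-fold lower (-6.45 ± 0.48, adjusted p = 7.80e-06). The reached member was the lectin gene Lgals1, at -0.68 ± 0.07 from WT aTreg cells. It was within 2-fold of them without a call against WT rTreg cells, as no gene of the list was called higher than in WT rTreg cells.

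4 members of the list were below both WT states: Entpd1, Itgb8, Cst7 and Ncmap. Ncmap encodes a protein of noncompact myelin with no known suppressive role, and without it 11 of 18 genes were lower, with a median of -2.66 (an alternative chosen after seeing the data). Entpd1 (CD39, which degrades extracellular ATP) was at 9.88 and 10.5 CPM in Foxp1-deficient rTreg cells, 24.2 and 27.2 CPM in WT rTreg cells and 65.7 and 47.9 CPM in WT aTreg cells. Itgb8, a chain of the integrin that activates TGF-beta, was at 6.85 and 5.49 CPM, 12.1 and 14.0 CPM, and 107 and 77.6 CPM in the same order. For both genes the 3 groups did not overlap, and both differences from WT rTreg cells were called (Entpd1 -1.32, adjusted p = 0.00485; Itgb8 -1.11, adjusted p = 0.0145).

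Of 21 immunoglobulin family co-receptors tested, 11 were lower (52.4%) and none was higher (median -1.21). Icos, a costimulatory receptor, stood at 35.1 and 46.7 CPM against 341 and 318 CPM, 8.06-fold apart (-3.01 ± 0.11, adjusted p = 4.02e-06), and WT rTreg cells were at 42.6 and 49.3 CPM. Pdcd1 (PD-1) stood at 10.2 and 15.8 CPM against 173 and 107 CPM, Lag3 at 3.19 and 4.33 CPM against 96.7 and 64.0 CPM, and Tigit at 1.91 and 5.20 CPM against 183 and 96.6 CPM. Ctla4, which strips costimulatory ligands from antigen presenting cells, differed between replicates in every group and between groups in both pairs: it was at 211 and 96.6 CPM in Foxp1-deficient rTreg cells, 353 and 197 CPM in WT rTreg cells and 844 and 395 CPM in WT aTreg cells. The log2 difference from WT aTreg cells was -2.02 ± 0.08 (adjusted p = 4.08e-06) and that from WT rTreg cells -0.88 (adjusted p = 0.000887, under 2-fold).

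Of 15 TNF receptor superfamily genes tested, 4 were lower (26.7%): Tnfrsf4, Tnfrsf9, Tnfrsf1b and Tnfrsf8. Tnfrsf9 (4-1BB) stood at 34.6 and 37.6 CPM against 227 and 118 CPM (-2.15 ± 0.20, adjusted p = 0.000172) and Tnfrsf1b (TNFR2) at 159 and 132 CPM against 670.2 and 463 CPM (-1.95 ± 0.12). Tnfrsf4 (OX40) stood at 125 and 105 CPM against 306 and 176 CPM, near the 2-fold limit (-1.02 ± 0.13), and its call was lost without replicate 1 of either group. Tnfrsf18 (GITR) was at 47.0 and 41.8 CPM against 72.7 and 52.2 CPM, a smaller difference that was not called (-0.47 ± 0.09).

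In the Treg identity list, 7 of 15 genes were lower (46.7%), none was higher and 7 were within 2-fold. Foxp3 stood at 429 and 480.1 CPM against 530.3 and 536 CPM in WT aTreg cells (-0.23 ± 0.08, adjusted p = 0.0617), and Il2ra, the high affinity IL-2 receptor chain, at 620.5 and 532 CPM against 518 and 412 CPM (0.31 ± 0.06, adjusted p = 0.00581, under 2-fold). Ikzf2 (Helios) was lower, at 348 and 337 CPM against 1209 and 1010.2 CPM (-1.69 ± 0.08, adjusted p = 7.80e-06), and was also under WT rTreg cells at 466 and 479.7 CPM. Gpr83 was the reached member of the list, lower than WT rTreg cells (-1.41, adjusted p = 0.00395) and at -0.22 ± 0.18 from WT aTreg cells.

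Of 31 cytokine receptor genes tested, 9 were lower (29.0%) and 2 were higher (6.45%). The lower ones included alarmin and IL-1 family receptors: Il1rl1 (ST2, the IL-33 receptor) stood at 1.43 and 1.52 CPM against 45.9 and 86.4 CPM (-5.57 ± 0.27, adjusted p = 3.51e-06), and below WT rTreg cells at 4.70 and 5.81 CPM, while the decoy receptor Il1r2 was at -5.19 ± 0.67 and Il9r at -6.00 ± 0.39. Il4ra, the shared IL-4 and IL-13 receptor chain, was higher, at 625 and 631 CPM against 188 and 239 CPM (1.56 ± 0.09, adjusted p = 1.85e-05), and above WT rTreg cells at 390.2 and 386 CPM (0.69, adjusted p = 0.00395, under 2-fold). Ifngr2 was higher at 86.4 and 86.8 CPM against 31.8 and 41.3 CPM (1.23 ± 0.13), beside 91.9 and 86.7 CPM in WT rTreg cells.

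Of 34 genes that respond to antigen receptor signals, 9 were lower (26.5%) and 1 was higher (2.94%). Egr2 stood at 18.01 and 24.4 CPM against 81.3 and 76.4 CPM (-1.87 ± 0.12, adjusted p = 2.53e-05), Cd83 was at -4.20 ± 0.14 and Fosb at -2.25 ± 0.12. Nr4a1 (Nur77), a common reporter of such signals, differed more between replicates than between groups, at 768 and 173 CPM against 553 and 163 CPM (0.30 ± 0.14, adjusted p = 0.138). The higher gene, Ier3, averaged 0.919 CPM against 0.197 CPM, and its call was lost when any 1 of the 4 libraries was left out.

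Factors of the resting state were retained. Of 22 resting state transcription factors and regulators tested, 7 were higher than in WT aTreg cells (31.8%), none was lower and 14 were within 2-fold. All 7 were genes that fall in WT activation. Satb1, a chromatin organiser, stood at 727 and 643 CPM against 96.0 and 219 CPM (2.16 ± 0.28, adjusted p = 0.000984), with WT rTreg cells at 731 and 745 CPM. Bach2, which holds back effector programmes, stood at 208 and 212 CPM against 76.4 and 98.3 CPM (1.26 ± 0.13). Klf2, the regulator of S1pr1, stood at 668 and 431 CPM against 200.5 and 219 CPM (1.37 ± 0.21), and Lef1 at 335 and 312 CPM against 120.3 and 173 CPM (1.14 ± 0.15), whose call was lost without WT aTreg replicate 1. Tcf7, its relative, was 1.53-fold higher (0.61 ± 0.10, adjusted p = 0.00215). Sox4 stood at 84.0 and 39.9 CPM against 5.38 and 5.19 CPM, 10.5-fold apart (3.40 ± 0.26), and was above WT rTreg cells in both pairs (43.2 and 16.3 CPM).

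Of 12 genes of lymph node homing and egress, 4 were higher (33.3%), Igfbp4, S1pr1 and Klf2 among them. None was lower, and 2, St8sia6 and Itga6, were reached. S1pr1, the receptor for egress into lymph, stood at 536 and 431 CPM against 160.0 and 179 CPM (2.82-fold, adjusted p = 0.000129). Cd44 (29.6 and 30.3 CPM against 213 and 214 CPM) encodes a protein on which the cells were sorted, so its difference follows from the gate. Igfbp4 stood at 452 and 381 CPM against 43.7 and 167 CPM (2.03 ± 0.51), and its call was lost without either Foxp1-deficient rTreg library. Itga6, a laminin receptor chain, had fallen from 417 and 429.8 CPM in WT rTreg cells to 229 and 226 CPM (-0.89, adjusted p = 0.000525, under 2-fold). WT aTreg cells were at 187 and 212 CPM (0.19 ± 0.07). St8sia6, a sialyltransferase, had fallen from 204 and 268 CPM to 102 and 127 CPM, beside 66.8 and 104 CPM. Outside this list, the genes with the largest activation decrease that were reached were the protease Ctsl, at 5.74 and 4.12 CPM against 4.94 and 3.40 CPM in WT aTreg cells and 13.9 and 7.31 CPM in WT rTreg cells, the kinase gene Nim1k (1.75 and 1.08 CPM against 1.76 and 1.09 CPM) and Prr7 (44.1 and 26.1 CPM against 27.1 and 17.4 CPM), whose replicates differed in every group. For the chemokine receptor Ccr7, at 298 and 212 CPM against 205 and 196 CPM, the difference was small (0.32 ± 0.10, adjusted p = 0.0384).

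Of 74 oxidative phosphorylation genes, none was called at 2-fold by edgeR, limma-voom or DESeq2, and 73 were within 2-fold. The small differences went 1 way, with a median log2 difference of 0.24 and 42 genes higher (56.8%) and 0 lower at an unadjusted p under 0.05, against 22.3% and 23.8% of all genes tested. Of 30 cholesterol and fatty acid synthesis genes, 1 was called higher (3.33%) and none lower, against 3.51% and 10.6% of all genes tested. Their median log2 difference was 0.05. Fasn, the fatty acid synthase, was 0.74 ± 0.08 higher and stayed under 2-fold, at 546 and 469 CPM against 293 and 315 CPM. Of 24 genes on the glycolysis list, 4 were lower (16.7%) and 1 was higher (4.17%), against 10.6% and 3.51% of all genes tested. The lower ones included hexokinase Hk2 (6.53 and 4.12 CPM against 14.9 and 11.7 CPM, -1.36 ± 0.17) and the lactate exporter Slc16a3 (-1.26 ± 0.20). The lactate dehydrogenase Ldha was 1.53-fold higher (0.61 ± 0.05, adjusted p = 0.000107). Tkt, the transketolase of the pentose phosphate pathway, was the 1 gene of the list called higher, at 479.9 and 515 CPM against 185 and 163 CPM in WT aTreg cells and 172 and 164 CPM in WT rTreg cells (1.52 ± 0.08, adjusted p = 1.49e-05).

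Of 42 interferon-stimulated genes tested, 9 were higher (21.4%) and 1, Gbp3, was lower (2.38%). The median log2 difference was 0.51, the highest of the 18 lists. Ly6c1 stood at 198 and 226 CPM against 2.63 and 10.8 CPM, 29.6-fold apart (4.89 ± 0.35, adjusted p = 4.16e-05), with WT rTreg cells at 94.7 and 118 CPM. The antiviral enzyme Oas2 stood at 66.8 and 111 CPM against 5.71 and 12.6 CPM (3.26 ± 0.19), above WT rTreg cells at 33.5 and 37.7 CPM. Other core members of the response were not called at 2-fold: Irf7 stood at 133 and 148 CPM against 91.0 and 77.3 CPM (0.74 ± 0.14, adjusted p = 0.00422), Ifit3 was at 0.92 ± 0.24 and Isg15 stood at 19.1 and 28.2 CPM against 22.8 and 17.1 CPM (0.28 ± 0.21, adjusted p = 0.329). Ly6 and Oas genes have close relatives, so reads may be split between them.

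Some genes lay outside the range between the WT states. 95 genes were called higher in Foxp1-deficient rTreg cells than in both WT aTreg and WT rTreg cells, and 148 were called lower than in both. For 86 of the 95 and 136 of the 148, both Foxp1-deficient rTreg libraries lay outside all 4 WT libraries. The genes were called with these same libraries, so this follows largely from the calls. The share over all genes tested was not counted. For 68 of the 95 and 85 of the 148, both Foxp1-deficient aTreg libraries also lay beyond both WT aTreg libraries in the same direction. The WT aTreg libraries are those used for the calls, which favours that direction. Here too the share over all genes tested was not counted. Of the 95 genes above both states, 72 were not activation genes, 9 rise and 14 fall in WT activation. By type, 19 of the 95 were immunoglobulin or T cell receptor segments and 9 were predicted genes. Of the 148 below both, 96 were not activation genes, 51 rise and 1 falls in WT activation. A call below WT aTreg cells favours genes that rise in activation, and a call above them favours genes that fall. These shares are therefore partly fixed by the rule. Over all 14540 genes tested, 1793 were activation genes, with 9.5% rising and 2.83% falling in WT activation. Most genes were therefore not activation genes in any case. Of the genes with a position, 8 of 95 and 8 of 147 were on chromosome 6 with Foxp1 (8.42% and 5.44%, against 5.14% of all genes tested), and 1 and 0 were within 10 Mb of it. The counts of 95 and 148 depended on single libraries: without Foxp1-deficient rTreg replicate 2, the deeper of the pair, they fell to 31 and 33, without its replicate 1 to 59 and 82, without WT rTreg replicate 1 to 62 and 90, and without WT rTreg replicate 2 to 37 and 58.

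**Figure D5:**
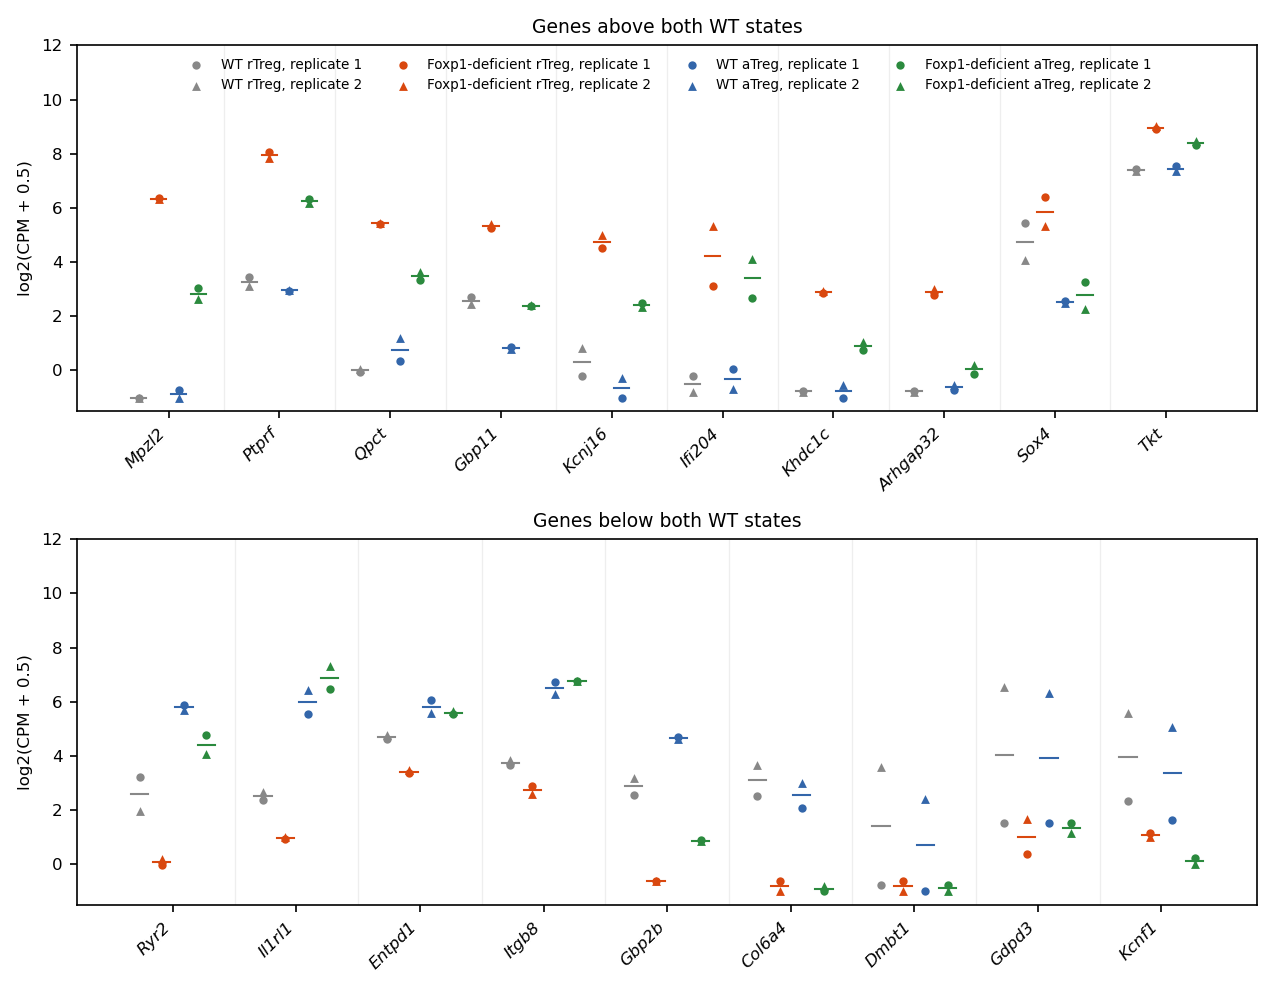
Level in each library, as log2(CPM + 0.5), for 10 genes above both WT states (top) and 9 genes below both (bottom). Circles are replicate 1, triangles are replicate 2, and bars are the mean of the 2 in WT rTreg (grey), Foxp1-deficient rTreg (orange), WT aTreg (blue) and Foxp1-deficient aTreg cells (green). Mpzl2 and Ptprf were high in Foxp1-deficient rTreg cells, lower in Foxp1-deficient aTreg cells and lowest in both WT groups, whereas Gdpd3, Dmbt1 and Kcnf1 were high only in WT replicate 2.

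The gene with the largest increase was Mpzl2, an adhesion molecule of the immunoglobulin family on chromosome 9. Its counts were 509 and 1099 in Foxp1-deficient rTreg cells against 1 and 0 in WT aTreg cells. No read came from either WT rTreg library, and Foxp1-deficient aTreg cells gave 93 and 79. The ratio to WT aTreg cells was 1975, with a 95% counting interval of 354 to 78060, and the level was at least 628-fold higher than in WT rTreg cells against a floor of 3 counts over that group. Ptprf, a receptor tyrosine phosphatase, stood at 265 and 232 CPM against 7.24 and 7.44 CPM in WT aTreg and 10.3 and 8.17 CPM in WT rTreg cells, 33.3-fold apart from WT aTreg cells (5.06 ± 0.10, adjusted p = 2.23e-07). Foxp1-deficient aTreg cells were between, at 79.3 and 73.1 CPM. Per length, Ptprf had a mean of 26.5 FPKM and Mpzl2 one of 11.2 FPKM in Foxp1-deficient rTreg cells, beside 111 FPKM for Foxp3.

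Qpct, which forms pyroglutamate at protein ends, stood at 41.6 and 43.5 CPM against 0.768 and 1.80 CPM in WT aTreg cells, 31.1-fold apart, and was 1 of the 9 activation genes that were exceeded. The potassium channel gene Kcnj16 had 142 and 432 counts against 0 and 5 in WT aTreg cells, and Ifi204, of the interferon-inducible DNA sensor family, 51 and 554 counts against 5 and 2. In each of these genes both Foxp1-deficient rTreg libraries were above every WT library. Gbp11, an interferon-inducible GTPase, stood at 37.5 and 42.0 CPM against 1.32 and 1.22 CPM, and Khdc1c and Arhgap32 were at 6.69 and 7.15 CPM and 6.38 and 7.51 CPM against at most 0.192 CPM in either WT aTreg library. Gbp, Ifi200 and Khdc1 genes have close relatives, so their counts may be split between copies.

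Markers of other cell types moved with part of this group. Mpo, Ctsg and Retnlg, genes of granulocytes and their precursors that were picked out after their values were seen, were among the 95. The 8 markers of that type summed to 20.7 and 8.81 CPM in Foxp1-deficient rTreg cells, 3.07 and 4.36 CPM in WT aTreg cells and 1.66 and 0.157 CPM in WT rTreg cells, with none of the 8 at 0 in all 4 libraries compared and 1 of 7 tested (Mpo) called. B cell markers summed to 10.5 and 10.1 CPM against 20.1 and 20.9 CPM in WT aTreg cells, and plasma cell markers to 9.88 and 6.21 CPM against 8.997 and 4.94 CPM. Of the 4 tested on each list, Cd79b and Pax5 (B cell) and Sdc1 and Derl3 (plasma cell) were called lower and none was called higher. Ighg1 (2.88 ± 0.47) and Igkc (1.72 ± 0.55) were nevertheless higher than in WT aTreg cells. The other marker lists, of macrophages and monocytes, erythroid cells, platelets, CD8 T cells and natural killer (NK) cells, gave 1 call, the NK gene Klrb1c, which was lower. The part of these cells in the result was not tested. Without receptor segments, granulocyte genes and eye genes, 73 genes remained above both WT states and 146 below both.

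Below both WT states, Ryr2, a calcium release channel, had 3 and 9 counts in Foxp1-deficient rTreg cells against 532 and 808 in WT aTreg cells, with WT rTreg cells at 97 and 44 (-6.44 ± 0.57 and -3.20, adjusted p = 1.66e-05 and 0.0069). Gbp2b, an interferon-inducible GTPase, had 1 and 2 counts against 232 and 376 in WT aTreg cells, with WT rTreg cells at 59 and 110, and was low in Foxp1-deficient aTreg cells too, at 16 and 18. The collagen gene Col6a4 had 1 and 0 counts, beside 34 and 118 in WT aTreg cells, with WT rTreg cells at 57 and 156 and Foxp1-deficient aTreg cells at 0 and 1. These 3 genes did not overlap between Foxp1-deficient rTreg and any WT library.

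Gdpd3, Kcnf1 and Dmbt1 showed another pattern. Gdpd3 had 22 and 1259 counts in WT aTreg and 26 and 1169 in WT rTreg cells, against 5 and 37 in Foxp1-deficient rTreg cells. Dmbt1 had 0 and 76, and 1 and 146, against 1 and 0, and Kcnf1 had 24 and 519, and 49 and 599, against 11 and 21. Their high values all came from WT replicate 2, in resting and activated cells alike. Among the 148 genes, 14 had WT replicates over 4-fold apart the same way in both subsets, 10 of them high in replicate 2 and 4 high in replicate 1. The calls for Gdpd3 and Kcnf1 against WT aTreg cells were lost without Foxp1-deficient rTreg replicate 2 and without WT aTreg replicate 2. They were also lost without the block, with DESeq2 and with robust dispersion. The difference for Dmbt1 changed sign without Foxp1-deficient rTreg replicate 2 (1.31, not called). Its call was also lost without WT aTreg replicate 2, without the block, with limma-voom and with DESeq2.

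Of the genes with the largest decrease, several were almost unread in Foxp1-deficient rTreg cells. Klrg1, a marker of terminally differentiated effector cells, had 0 and 2 counts against 348 and 524 in WT aTreg cells, a ratio of 355 (95% counting interval 98.0 to 2936) in favour of WT aTreg cells. The carboxylesterase Ces2c had no count in Foxp1-deficient rTreg cells and 184 and 319 in WT aTreg cells, which were at least 137-fold higher against a floor of 3 counts over the group. Ifng had 0 and 1 counts against 202 and 134, Noxa1, an NADPH oxidase activator, 0 and 1 against 167 and 271, and the Wnt coreceptor Ryk 1 and 1 against 152 and 187. In WT rTreg cells each of these genes was close to 0 as well, with at most 7 counts in any library. Slc7a10 and Lrp3, both lacked, overlap on opposite strands of chromosome 7, and without stated strand reads in the stretch they share cannot be told apart. Beside these decreases, markers of conventional CD4 T cell cytokines summed to 27.9 and 30.0 CPM in Foxp1-deficient rTreg cells and to 65.6 and 50.2 CPM in WT aTreg cells, where Ifng and Il4 were the called members, and dendritic cell markers summed to 14.5 and 25.1 CPM against 52.2 and 45.1 CPM, with Xcr1, Cd74 and Zbtb46 called lower of 4 tested. The part of such cells in the result was not tested.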

How the data were processed

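Total RNA of sorted cells was sequenced, with no strand stated for the counting. Per the labels and the study's methods, the authors trimmed reads, aligned them to mm10 with HISAT2 2.0.5, removed duplicates and deposited HTSeq counts for each Ensembl gene, which are whole reads that were not normalized. The authors also deposited FPKM values, used here only to compare levels between genes. Library totals ran from 6373170 to 15268623 counts.

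Counts of all 8 libraries were fitted with edgeR 4.0.16 (R 4.3.3, TMM scaling, quasi-likelihood test) with 1 coefficient for each group plus a block for the replicate number, since the study paired its replicates. Deviations of same-numbered libraries correlated at 0.389 between Foxp1-deficient rTreg and WT aTreg cells, 0.490 between the rTreg groups and 0.632 between the WT groups. filterByExpr with a minimum count of 10 kept 14540 of 27594 genes. A call needed an adjusted p under 0.05 and a 2-fold difference, and intervals are at 95%. Counting intervals and floors cover counting error only. CPM values are TMM-scaled.

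The comparison and the gene lists were chosen with earlier results of these data known. Genes were named by a rule: marked genes of each list, up to 3 called genes per list and direction, and the largest changes of all genes, those above or below both WT states, and among reached and lacked genes. Alternatives were limma-voom 3.58.1, DESeq2 1.42.0, DESeq2 size factors, other filters, no block, fewer libraries, robust dispersion and a 1.5-fold limit. Scripts were tested on simulated counts. Some genes are not reported here.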

Additional observations from a re-analysis of the deposited data

How the results depend on the processing

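Of 252 counts of genes recomputed over all settings, 195 stayed within 1.5 times the reported count. Without the replicate block, that is without pairing, 311 genes were higher than in WT aTreg cells, 245 fell in WT activation, 109 rose and 69 fell against WT rTreg cells, 152 activation genes of the lower side were lacked, 40 and 18 were reached on the higher and lower side, 4 and 0 were exceeded, and 41 genes were above and 54 below both WT states. DESeq2 with the block gave 47 and 19 reached and 5 and 0 exceeded. With no filter, 330 genes were lower than in WT rTreg cells, 2 were exceeded on the lower side, and 147 and 228 were above and below both WT states. With a 1.5-fold limit the numbers in the same order as for the block were 1024, 758, 421, 393 and 458, with 51 reached on the lower side, 20 and 6 exceeded, and 166 and 272 above and below both. The cause of these shifts was not tested, apart from the looser limit admitting more genes.

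Leaving out 1 library at a time gave 335 to 495 genes higher and 1114 to 1568 lower than in WT aTreg cells, 1078 to 1398 that rose and 237 to 420 that fell in WT activation, and 91 to 299 that rose and 43 to 210 that fell against WT rTreg cells. Lacked genes numbered 832 to 1102 and 143 to 284, reached genes 34 to 93 and 17 to 37, exceeded genes 3 to 9 and 0 to 1, and genes above and below both WT states 31 to 100 and 33 to 140. Most of the lowest values came without Foxp1-deficient rTreg replicate 2, the deeper library of that group. The removal of receptor segments, granulocyte genes and eye genes, chosen after seeing the data, left 455 genes higher and 1531 lower than in WT aTreg cells.

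Of 2423 values for 143 named genes over 17 settings, 2324 kept their direction and call, 77 in 21 genes lost the call, 21 gained it, and 1 changed sign, the named gene Dmbt1 without Foxp1-deficient rTreg replicate 2 (1.31, with a lowest value of -8.91 without replicate 1). With 2 libraries a group, small differences in genes of few counts were not detectable at this depth.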
